A study of Mus musculus with 6 samples.

Results

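A set of 10 genes that act in inflammasomes and in pyroptosis, an inflammatory form of cell death, was examined, chosen by their symbols in the deposited count table of 55335 genes. They are the sensors Nlrp3, Aim2 and Mefv, the adaptor gene Pycard, the NLRP3-linked genes Nek7 and Txnip, the inflammatory caspases Casp1 and Casp4, and the membrane effectors Gsdmd and Ninj1. All 10 were found once and all 10 passed the filter on low counts, with between 929 and 19560 counts in a library.

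Inflammasomes are protein platforms that macrophages assemble when a sensor meets a sign of infection or of cell damage. A sensor recruits the adaptor ASC, ASC gathers and activates caspase-1, and caspase-1 then matures interleukin-1 beta and interleukin-18 and cuts gasdermin D, whose freed end makes pores in the plasma membrane. In the death that follows the membrane is finally torn by NINJ1. In acute pancreatitis, injured acinar cells release their contents into the tissue, and NLRP3 in macrophages is the best known sensor of such damage. Inducing the sensor and the cytokine transcripts, called priming, is the step that RNA levels can show. Assembly, cleavage and membrane rupture are protein events that RNA counts do not measure.

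The libraries came from mouse bone marrow-derived macrophages, grown from marrow cells with 10% serum and with macrophage colony-stimulating factor at 20 ng/mL. On day 5 all of them received PAC-CM, the medium in which injured acinar cells of the pancreas had been kept. The 3 libraries of the PAC-CM-KD group also received kinsenoside, a glycoside from an orchid, at 400 µM. The 3 libraries of the PAC-CM group had PAC-CM alone. The labels used here name neither the strain nor the age of the mice and do not say how the acinar cells were injured. Nor do they state if the 3 replicates of a group are from different animals or cultures. The p-values then reflect only how far these libraries spread, and that spread may be technical. A group without PAC-CM was not analysed here, and the values bear on kinsenoside rather than on priming by the medium.

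The libraries held 41125059 to 43434292 counts with kinsenoside and 43054066 to 47461702 in PAC-CM. Values below are in CPM, each gene's count scaled to a common library total after TMM scaling, whose factors were 0.9788 to 0.9903 with kinsenoside and 1.0126 to 1.0186 in PAC-CM. The macrophage label was met by all 9 macrophage markers examined, which summed to 20400 to 23000 CPM with kinsenoside and 18300 to 19900 CPM in PAC-CM, mostly from Lyz2 and without overlap. Of these 9 markers 1 passed, Mrc1, the mannose receptor gene, which rose to 145.3 CPM with kinsenoside, against 92.2 CPM in PAC-CM (log2 fold change 0.66, edgeR adjusted p = 0.0316). Neutrophil markers summed to 32.9 to 43.4 CPM with kinsenoside and 30.3 to 39.4 CPM in PAC-CM, with Elane at 0. Most of this came from S100a8, at means of 37.1 CPM with kinsenoside and 34.2 CPM in PAC-CM, while S100a9 had 0.72 and 0.78 CPM. Acinar markers summed to 4.45 to 5.84 CPM and 5.29 to 5.97 CPM in these groups, with Ptf1a at 0, and 4 ductal markers were at 0 throughout. The part of cell composition in the results was not tested. In bulk RNA, fewer cells of a type and less RNA per cell cannot be told apart. PAC-CM-KD replicate 1 stood apart on the second principal component, at -39.3, against -6.13 to 19.7 for the other libraries, and results that change without it are given as such.

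No gene of the set passed the test of kinsenoside against PAC-CM. By the quasi-likelihood test of edgeR, with p adjusted after Benjamini and Hochberg over 13901 genes, 0 of the 10 had an adjusted p under 0.05, where 0.511% of all tested genes passed. DESeq2 and limma-voom also called 0 of the 10. At an unadjusted p under 0.05 there were 3 of the 10, against 14.9% of all tested genes. Nlrp3 and Txnip had the lower estimates, where 8.19% of all genes did, and Ninj1 the higher one, where 6.74% did. The 3 kinsenoside libraries lay all below or all above the 3 PAC-CM libraries for 3 of the 10, Nlrp3, Casp4 and Ninj1, against 21.8% of all tested genes (11.4% below and 10.4% above). The median log2 fold change of the 10 genes was -0.04, beside -0.01 over all tested genes. A fold change here is kinsenoside over PAC-CM, so that negative values mean lower with kinsenoside.

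**Figure D1:**
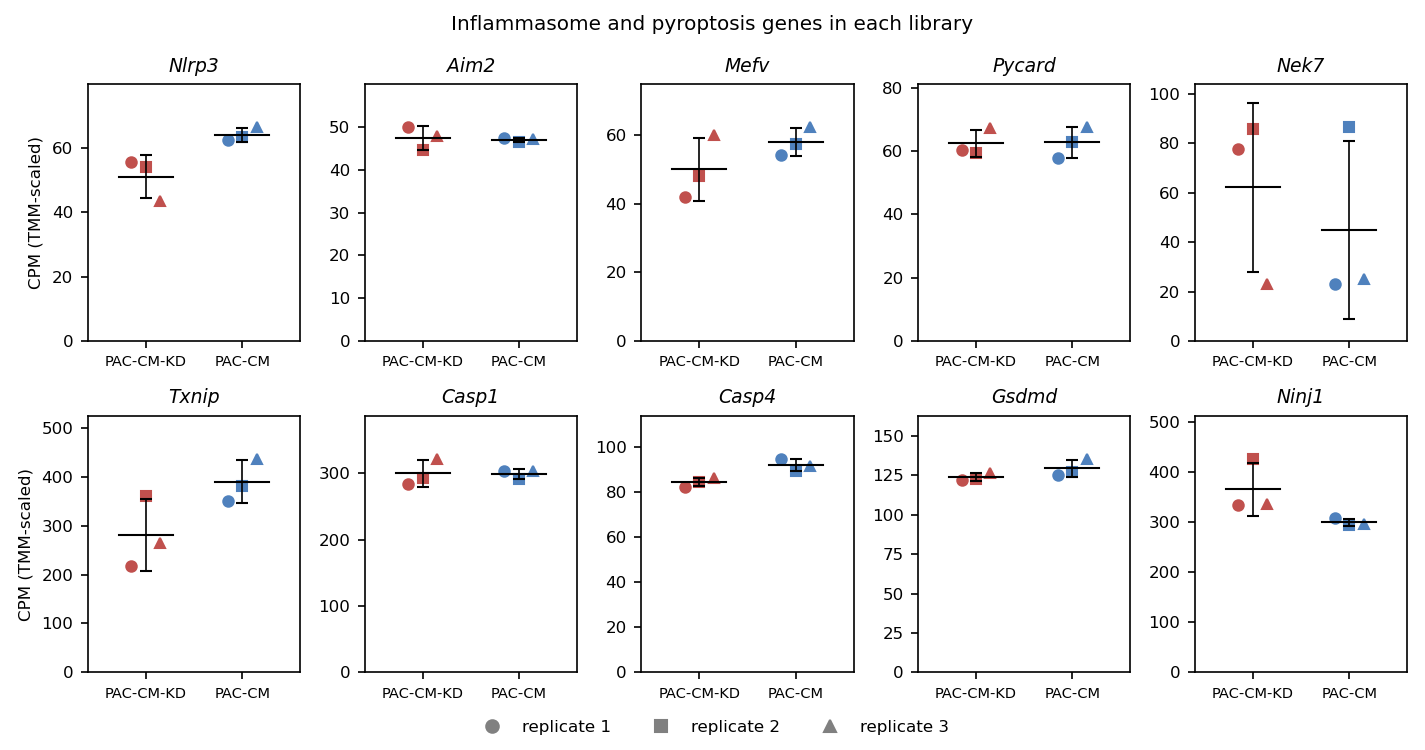
CPM after TMM scaling (y axis, from 0) of each of the 10 genes in the 3 PAC-CM-KD and 3 PAC-CM libraries; symbols mark the replicate number, lines the mean and bars 1 SD. The groups stand apart for Nlrp3, Casp4 and Ninj1, Txnip overlaps through 1 kinsenoside library, and Nek7 falls on a high and a low level in both groups.

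Among the 3 sensors of the set, Nlrp3 had the lowest estimate. Nlrp3 (ENSMUSG00000032691, chromosome 11, 59541568 to 59566956, build GRCm38) encodes the sensor that responds to potassium loss, crystals and other signs of damaged cells, and its transcript is normally scarce until NF-kB induces it. It had 55.7, 53.9 and 43.4 CPM in kinsenoside replicates 1 to 3, against 62.3, 63.3 and 66.4 CPM in PAC-CM replicates 1 to 3. All kinsenoside libraries lay below all PAC-CM libraries, and replicate 3 lay farthest below. The means were 51.0 ± 6.64 CPM with kinsenoside and 64.0 ± 2.10 CPM in PAC-CM (SD, n = 3 each). This was a log2 fold change of -0.33 (SE 0.0978, 95% interval -0.55 to -0.10), with an unadjusted p of 0.00923 in edgeR and an adjusted p of 0.182, so the call fell short over all genes. Without kinsenoside replicate 3 the estimate was -0.22, and without kinsenoside replicate 1 it was -0.40 (adjusted p = 0.251 and 0.12 in edgeR). The adjusted p over 15 alternatives lay between 0.0878, from DESeq2, and 0.394.

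Aim2 and Mefv did not stand apart between the groups. Aim2 (ENSMUSG00000037860, chromosome 1, 173350879 to 173466040) encodes a sensor of DNA in the cytosol. It had 49.99, 44.6 and 47.99 CPM with kinsenoside and 47.4, 46.5 and 47.3 CPM in PAC-CM, so the PAC-CM values lay inside the kinsenoside range. Its log2 fold change was 0.01 (95% interval -0.14 to 0.17, edgeR adjusted p = 0.953), and the sign changed with total count or upper quartile scaling and without kinsenoside replicate 1. In linear terms the interval ran from 0.908-fold to 1.12-fold.

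Mefv (ENSMUSG00000022534, chromosome 16, 3707218 to 3718097) encodes pyrin, which senses the block of the GTPase RhoA by bacterial toxins. It had 42.0, 48.1 and 60.2 CPM with kinsenoside and 54.4, 57.6 and 62.4 CPM in PAC-CM. Replicates 1 and 2 with kinsenoside lay below every PAC-CM library, while replicate 3 lay among them. Mefv had a log2 fold change of -0.21 (95% interval -0.51 to 0.08, edgeR adjusted p = 0.486). The estimate rested in part on replicate 1, since it was -0.10 without that library and -0.37 without kinsenoside replicate 3.

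Pycard, the adaptor gene, had overlapping values in the groups. Pycard (ENSMUSG00000030793, chromosome 7, 127989708 to 127993867) encodes ASC, which joins a sensor's pyrin domain to the CARD of caspase-1. It had 60.4, 59.4 and 67.4 CPM with kinsenoside and 57.8, 62.9 and 67.5 CPM in PAC-CM, which overlapped over nearly their whole range. Pycard had a log2 fold change of -0.01 (95% interval -0.20 to 0.18, edgeR adjusted p = 0.98), with either sign when single libraries were left out. The opposite-strand model Gm45205, which shares 485 exon bases with Pycard, had 7 to 14 counts with kinsenoside and 3 to 9 in PAC-CM, against at least 2482 for Pycard. Whether strand was used in counting is not stated, and the part of shared reads was not tested.

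The caspase genes lie side by side on chromosome 9 and had estimates near 0. Casp1 (ENSMUSG00000025888, 5298517 to 5307265) encodes the protease that matures interleukin-1 beta and interleukin-18. It had 284, 294 and 322 CPM with kinsenoside and 304, 291 and 304 CPM in PAC-CM, with the PAC-CM libraries inside the kinsenoside range. The log2 fold change was 0.00 (SE 0.0666, 95% interval -0.15 to 0.15, edgeR adjusted p = 0.994). The interval spans 0.901-fold to 1.11-fold, and the sign changed with DESeq2, with total count or upper quartile scaling, without a filter, and without kinsenoside replicate 3 or PAC-CM replicate 2.

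Casp4 (ENSMUSG00000033538, 5308828 to 5336783) encodes the mouse protein known as caspase-11, which binds bacterial lipopolysaccharide in the cytosol and cuts gasdermin D without a sensor platform. It had 82.4, 84.3 and 86.0 CPM with kinsenoside, against 94.7, 89.2 and 91.7 CPM in PAC-CM. The groups did not overlap, and the spread within them was small, with coefficients of variation of 2.12% with kinsenoside and 3.01% in PAC-CM beside 1.61% from counting error alone. The log2 fold change was nonetheless small, at -0.13 (SE 0.0601, 95% interval -0.26 to 0.01), and did not pass (unadjusted p = 0.0681 and adjusted p = 0.374 in edgeR). It stayed below 0 in all 15 alternatives, between -0.17 and -0.10.

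The membrane effectors had estimates of opposite sign. Gsdmd (ENSMUSG00000022575, chromosome 15, 75862327 to 75867408) encodes gasdermin D, the pore-forming substrate of caspase-1 and caspase-11. It had 122.3, 122.6 and 126.8 CPM with kinsenoside and 125.4, 127.4 and 135.6 CPM in PAC-CM, which overlapped through kinsenoside replicate 3 and PAC-CM replicate 1. By plain library totals, without TMM scaling, the groups of Gsdmd and of Txnip did not overlap either, as for 22.5% of all tested genes (15.7% below and 6.86% above). Gsdmd had a log2 fold change of -0.06 (95% interval -0.20 to 0.08, edgeR adjusted p = 0.683), or 0.869-fold to 1.05-fold.

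Ninj1 (ENSMUSG00000037966, chromosome 13, 49187485 to 49196244) encodes the small membrane protein that clusters in dying cells and ruptures their plasma membrane. It had 333, 426 and 336 CPM with kinsenoside, against 307, 294 and 296 CPM in PAC-CM. All kinsenoside libraries lay above all PAC-CM libraries, and replicate 2 stood well above its own group. The means were 365 ± 52.7 CPM with kinsenoside and 299 ± 7.13 CPM in PAC-CM (SD, n = 3 each). Ninj1 thus had a log2 fold change of 0.29 (SE 0.0978, 95% interval 0.06 to 0.51), with an unadjusted p of 0.0178 and an adjusted p of 0.229 in edgeR. Without kinsenoside replicate 2 the estimate was 0.16 (adjusted p = 0.42 in edgeR).

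**Figure D2:**
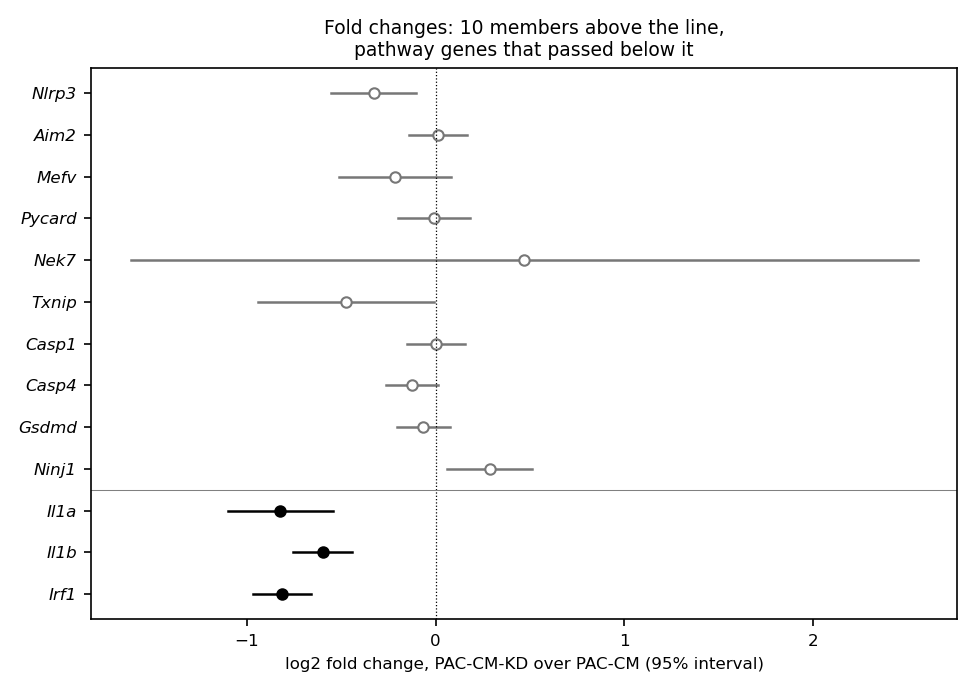
Log2 fold change of kinsenoside over PAC-CM (x axis) with its 95% interval from edgeR; open points are the 10 genes, none past an adjusted p of 0.05, and filled points are the pathway genes that passed, Il1a, Il1b and Irf1. Intervals of Nlrp3, Txnip and Ninj1 leave out 0 before adjustment, and that of Nek7 is the widest of the 10.

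Of the genes linked to NLRP3 activation, Txnip had the lowest estimate of the set. Txnip (ENSMUSG00000038393, chromosome 3, 96557957 to 96561883) encodes an arrestin-like protein that binds thioredoxin and limits glucose uptake. It has been reported to bind NLRP3 under oxidative stress, and its transcription follows glucose through MondoA and ChREBP. It had 218, 361 and 265 CPM with kinsenoside, against 351, 382 and 437 CPM in PAC-CM. Replicates 1 and 3 with kinsenoside lay below every PAC-CM library and replicate 2 lay just above the lowest of them. The means were 281 ± 72.9 CPM with kinsenoside and 389.9 ± 43.3 CPM in PAC-CM (SD, n = 3 each). Txnip thus had a log2 fold change of -0.47 (SE 0.192, 95% interval -0.94 to -0.01), with an unadjusted p of 0.0479 and an adjusted p of 0.331 in edgeR. The estimate was -0.69 without kinsenoside replicate 2 and -0.32 without kinsenoside replicate 1, with adjusted p of 0.144 and 0.375. Across 15 alternatives the adjusted p was between 0.0843 and 0.551.

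Txnip lies wholly inside the antisense gene Gm15441, with which it shares 606 exon bases. Gm15441 had 3, 0 and 5 counts with kinsenoside and 8, 4 and 11 in PAC-CM, against 9309 to 19560 for Txnip. With the counts of both models summed, an alternative chosen after seeing the data, the log2 fold change was -0.47.

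Nek7 (ENSMUSG00000026393, chromosome 1, 138482875 to 138620141) encodes a kinase of the mitotic NIMA family that binds NLRP3 and is needed for its activation. It had 77.6, 85.9 and 23.1 CPM with kinsenoside and 22.9, 86.6 and 25.1 CPM in PAC-CM. The 6 libraries thus fell on a high level in 3 and a low level in 3, and each group held libraries of both. The highest library exceeded the lowest 3.72-fold within the kinsenoside group and 3.78-fold within PAC-CM, where counting error was 2.06%. Including Nek7, 8 of 5782 tested genes averaging 20 CPM or more, or 0.138%, had ratios in both groups at least as large as the smaller of these. Its log2 fold change of 0.47 had an interval that reached far to both sides of 0 (95% interval -1.61 to 2.55, edgeR adjusted p = 0.844), and it moved between 0.16 and 1.38 when single libraries were left out. Leaving out PAC-CM replicate 2, the high PAC-CM library, gave 1.38, and leaving out PAC-CM replicate 1 gave 0.16. The 3 gene models that overlap Nek7 (Gm28501, Gm37080 and Gm37101) were at 0 counts in every library, and the cause of the jump was not tested.

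**Figure D3:**
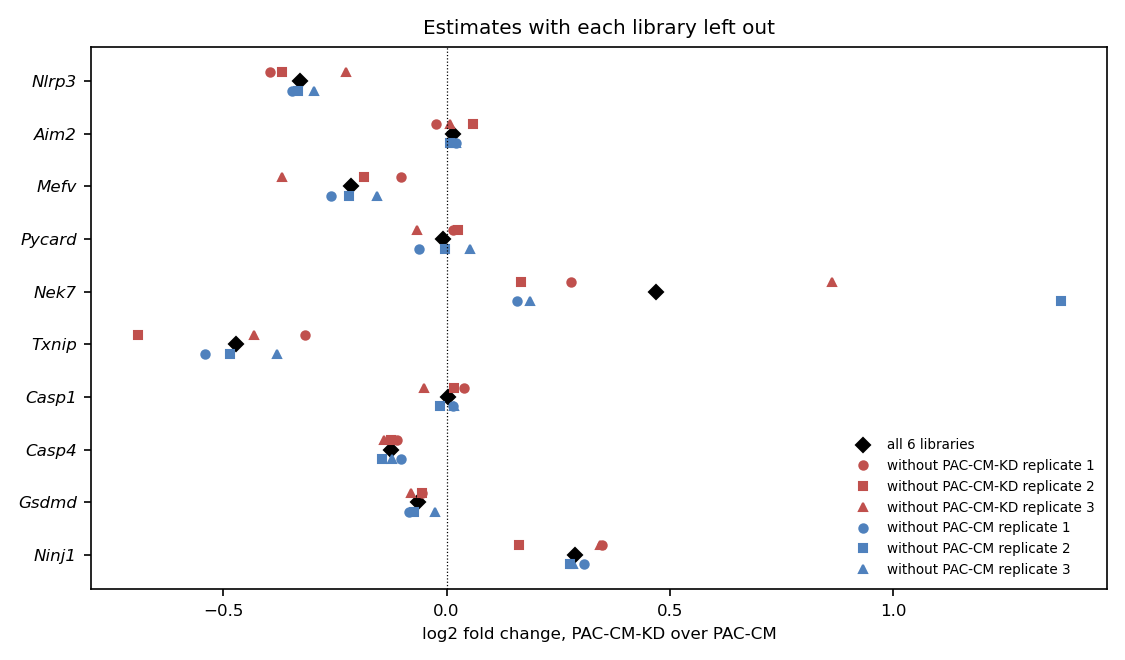
Log2 fold change of kinsenoside over PAC-CM (x axis) of the 10 genes with all 6 libraries (diamonds) and with each library left out in turn (red, a PAC-CM-KD library left out; blue, a PAC-CM library). Nlrp3, Mefv, Txnip, Casp4 and Gsdmd stay below 0 and Ninj1 above it in all 6 fits, Aim2, Pycard and Casp1 change sign, and Nek7 runs from 0.16 to 1.38.

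Promoter sequence is shown for the genes of the set whose windows held a searched motif, and for Irf1, the pathway gene that passed in every alternative. RefSeq promoter windows on GRCm38.p6, 250 bases before to 50 after an annotated start, were given for 9 of the 10 genes, in 11 windows. No window for Gsdmd was among them. Searched on both strands were the kappa-B consensus, the gamma activated site TTCNNNGAA, the interferon-stimulated response element (GAAA, any 2 bases, GAAA), the AP-1 site TGACTCA and the carbohydrate response element bound by MondoA and ChREBP (CACGNG, any 5 bases, CACGNG). Below, each run reads 5′ to 3′ on the gene's own strand, with matches in capitals.
Txnip, chr3:96557707-96558006: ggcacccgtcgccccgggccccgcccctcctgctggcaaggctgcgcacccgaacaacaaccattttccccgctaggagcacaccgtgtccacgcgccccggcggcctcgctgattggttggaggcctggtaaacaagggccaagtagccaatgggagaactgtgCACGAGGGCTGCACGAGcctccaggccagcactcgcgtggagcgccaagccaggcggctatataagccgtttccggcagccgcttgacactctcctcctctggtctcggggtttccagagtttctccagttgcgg
Nlrp3, chr11:59541319-59541618: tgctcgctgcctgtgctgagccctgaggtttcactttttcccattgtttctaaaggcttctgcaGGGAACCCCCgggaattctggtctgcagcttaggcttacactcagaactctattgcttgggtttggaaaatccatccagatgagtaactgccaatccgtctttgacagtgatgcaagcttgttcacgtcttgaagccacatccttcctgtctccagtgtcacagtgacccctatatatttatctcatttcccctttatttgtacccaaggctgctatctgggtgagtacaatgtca
Casp4, chr9:5308599-5308898: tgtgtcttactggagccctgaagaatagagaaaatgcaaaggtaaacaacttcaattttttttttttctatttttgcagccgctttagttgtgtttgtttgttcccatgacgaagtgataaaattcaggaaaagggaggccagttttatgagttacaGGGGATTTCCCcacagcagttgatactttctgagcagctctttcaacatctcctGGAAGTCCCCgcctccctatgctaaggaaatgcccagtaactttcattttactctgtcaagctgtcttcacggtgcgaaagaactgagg
Irf1, chr11:53769764-53770063: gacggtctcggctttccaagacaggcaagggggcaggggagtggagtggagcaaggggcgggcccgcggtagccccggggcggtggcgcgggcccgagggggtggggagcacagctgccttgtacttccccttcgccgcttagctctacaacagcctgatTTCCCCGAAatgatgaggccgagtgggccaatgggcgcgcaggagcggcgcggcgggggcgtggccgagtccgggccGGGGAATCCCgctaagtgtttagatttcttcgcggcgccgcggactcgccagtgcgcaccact

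The capitals in Txnip are a carbohydrate response element from 85 to 69 bases before the annotated start. That arrangement is rare, with a match in 16 of 32851 windows of all genes, or 0.0487%. In Nlrp3 the capitals are a kappa-B match from 186 to 177 bases before the upstream of its 2 annotated starts, and the other Nlrp3 window held no match. In the first of 2 nearly identical Casp4 windows they are 2 overlapping kappa-B matches between 93 and 83 bases before the start and another from 39 to 30 bases before it. Irf1, in the window shown, held TTCNNNGAA from 90 to 82 bases before its start and a kappa-B match from 13 to 4 bases before it. The other Irf1 window held no match, nor did the window of Il1b, and Il1a was not searched. The kappa-B consensus had a match in 8.46% of all windows and TTCNNNGAA in 8.30%. Of the 9 genes of the set with a window, 2 held a kappa-B match and 1 the carbohydrate response element. None held the gamma activated site, the interferon-stimulated response element, which 3.44% of all windows held, or the AP-1 site, which 5.20% held. A gene counted if any of its windows matched, and Nlrp3 and Casp4 had 2 windows each, while the percentages are shares of windows. A match is a description of letters and not of binding.

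Per kilobase of exon, Ninj1, Casp1 and Gsdmd were more abundant than Nlrp3, Aim2 and Mefv, the 3 sensors of the set, with no overlap between libraries. The length used takes in every annotated exon of a gene, 3800 bases for Pycard and 1497 for Casp1. It can exceed the length of the transcripts present, which lowers RPKM, so the order of genes rests on it. Which transcripts were present was not tested. In RPKM, the CPM per kilobase of exon, Ninj1 averaged 233 ± 33.6 with kinsenoside and 191 ± 4.54 in PAC-CM, and Casp1 200.4 ± 13.2 and 200.1 ± 4.85 (SD, n = 3 each). These 2 overlapped in both groups, and Casp1 ranked above Ninj1 in PAC-CM and below it with kinsenoside. Txnip, Gsdmd and Casp4 followed in this order in both groups, at 90.0, 52.1 and 22.7 RPKM with kinsenoside and 124.9, 54.5 and 24.8 RPKM in PAC-CM, each apart from its neighbours in the order. Below them, Pycard, Mefv, Aim2 and Nlrp3 lay close together, between 12.6 and 16.4 RPKM with kinsenoside and between 13.4 and 17.9 RPKM in PAC-CM. Nlrp3 ranked above Aim2 in PAC-CM, where the ranges of these 2 genes did not overlap, and below Aim2 with kinsenoside, where they did. Nek7 was lowest in both groups on average, at 8.43 and 6.08 RPKM, with the spread given above.

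**Figure D4:**
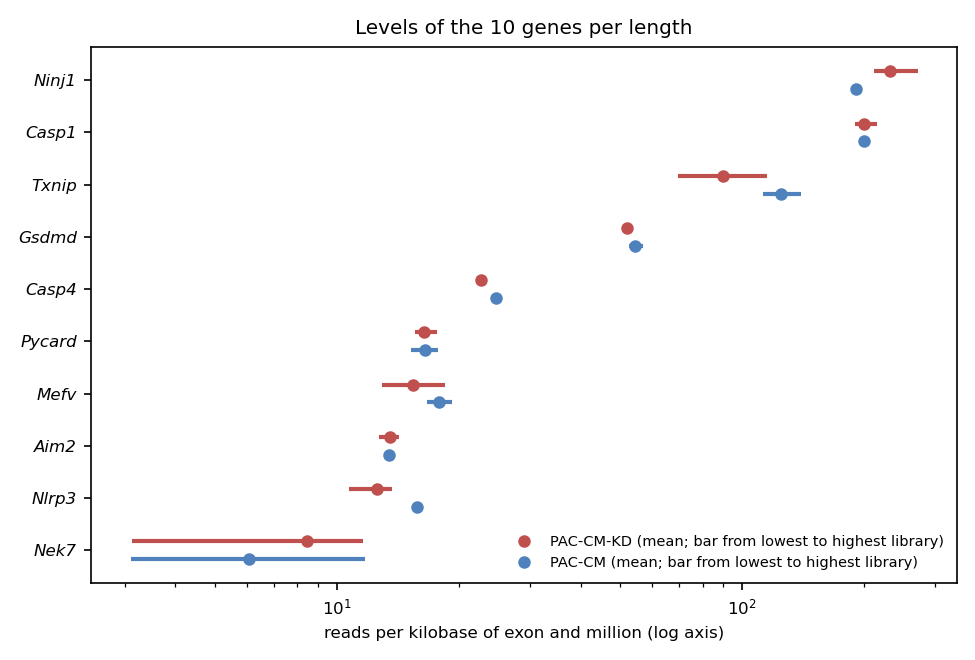
Level of each of the 10 genes in RPKM (x axis, log scale), by the length of all annotated exons, on which the order of genes rests. Points are means and bars run from the lowest to the highest of 3 libraries, PAC-CM-KD above PAC-CM. Casp1 and Ninj1 are highest, with means of 191 to 233 RPKM, and the sensors and the adaptor gene Pycard lie together, with means between 12.6 and 17.9 RPKM.

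The set can be read beside 75 other genes of the pathway, listed in 5 groups from general knowledge. The lists were drawn up with earlier results of these data known, so their counts beside all tested genes are a description only. Of these 73 are in the table, 66 were tested, 3 fell, 0 rose and 63 did not pass in edgeR's test, where 0.302% of all tested genes passed as lower and 0.209% as higher. The median log2 fold change of the 66 was 0.01, with 36 estimates above 0 and 30 below. At an unadjusted p under 0.05 there were 7 higher and 10 lower of the 66, where 6.74% of all tested genes were higher and 8.19% lower. The genes that fell were the cytokine genes Il1a and Il1b and the transcription factor gene Irf1.

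Of 7 tested cytokine outputs and inhibitors, Il1a and Il1b fell and 5 did not pass. Il1b, whose product caspase-1 matures, had 1073, 1067 and 955 CPM with kinsenoside and 1520, 1535 and 1627 CPM in PAC-CM (log2 fold change -0.60, adjusted p = 0.0152 in edgeR). Il1a, whose product needs no cut by caspase-1 to act, had 738, 709 and 531 CPM with kinsenoside and 1233, 1151 and 1115 CPM in PAC-CM (log2 fold change -0.82, adjusted p = 0.0403). Both fell, with no overlap between the groups, where 11.4% of all tested genes lay wholly below. Il1rn, which encodes the interleukin-1 receptor antagonist, had 3000, 2868 and 2987 CPM with kinsenoside and 2617, 2599 and 2584 CPM in PAC-CM, and did not pass (log2 fold change 0.18, adjusted p = 0.188). The calls of Il1a and Il1b were both lost without kinsenoside replicate 2 (adjusted p = 0.126 and 0.0681) and without PAC-CM replicate 1 (0.157 and 0.0824), 2 (0.151 and 0.0627) or 3 (0.117 and 0.0701), and that of Il1a with limma-voom (0.0548) and non-robust estimates (0.0542). Irf1 was the single pathway gene called in each of the 4 fits that lost both.

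Of 23 tested channels and regulators of assembly, Irf1 fell and 22 did not pass. Irf1, an interferon-induced transcription factor known to raise guanylate-binding proteins during Aim2 activation, had 84.7, 83.0 and 89.3 CPM with kinsenoside and 149.8, 142.8 and 158.8 CPM in PAC-CM (log2 fold change -0.81, adjusted p = 0.00248). It passed in all 15 alternatives. Gbp2, a guanylate-binding protein gene, had 1948 ± 204 CPM with kinsenoside and 2060 ± 143 CPM in PAC-CM (log2 fold change -0.08, adjusted p = 0.732). The other guanylate-binding protein genes of the list, Gbp3, Gbp5 and Gbp7, are given beside it after their values were seen. Gbp5, linked to NLRP3 assembly, had 539, 553 and 612 CPM with kinsenoside and 753, 692 and 771 CPM in PAC-CM (log2 fold change -0.38, edgeR adjusted p = 0.0762). Gbp3 had 529, 572 and 555 CPM with kinsenoside and 672, 619 and 661 CPM in PAC-CM (log2 fold change -0.24, adjusted p = 0.143), and Gbp7 had a log2 fold change of -0.13 (adjusted p = 0.425). For Gbp3 and Gbp5 all kinsenoside libraries lay below all PAC-CM libraries, as for 11.4% of all tested genes. None of the 4 guanylate-binding protein genes passed in edgeR with TMM scaling and the filter. Gbp5 passed with DESeq2 (adjusted p = 0.00167), with total count scaling (0.0493) and without a filter (0.0485). Clic1, a chloride channel gene linked to NLRP3 activation, had a log2 fold change of 0.08 (adjusted p = 0.628).

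No other sensor passed among 13 tested, with a median log2 fold change of -0.01. Naip2, which recognizes the rod protein of bacterial secretion systems, had a log2 fold change of -0.02, and Nlrc5, a regulator of MHC class I genes, of 0.04 (edgeR adjusted p = 0.931 and 0.852). Among 11 other caspases, gasdermins and membrane effectors none passed either, with a median of 0.10. Chmp4b, a subunit of the ESCRT machinery that repairs gasdermin pores, and Zbp1, a nucleic acid sensor upstream of several death pathways, had 0.10 and 0.09 (adjusted p = 0.472 and 0.512). For both genes, after TMM scaling, all kinsenoside libraries lay above all PAC-CM libraries, as for 10.4% of all tested genes.

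Of 12 tested thioredoxin and arrestin partners of Txnip none passed, with a median of 0.09. Txn1, the thioredoxin that Txnip binds, had 474, 482 and 531 CPM with kinsenoside and 421, 424 and 419 CPM in PAC-CM. All kinsenoside libraries of Txn1 lay above its PAC-CM libraries, as for 10.4% of all tested genes. Its estimate of 0.23 lay opposite in sign to that of Txnip (unadjusted p = 0.00584 and adjusted p = 0.154 in edgeR). Arrdc4, an arrestin gene that is a known MondoA target like Txnip, was singled out after its values were seen. It had 73.8, 76.0 and 73.4 CPM with kinsenoside and 62.8, 56.7 and 63.1 CPM in PAC-CM (log2 fold change 0.29, unadjusted p = 0.00236 and adjusted p = 0.111 in edgeR), and it passed with DESeq2 alone of the 15 alternatives (adjusted p = 0.0364). Its RefSeq window held no match to the carbohydrate response element. Slc2a1, the glucose transporter gene GLUT1, had a log2 fold change of -0.13 (adjusted p = 0.491).

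**Figure D5:**
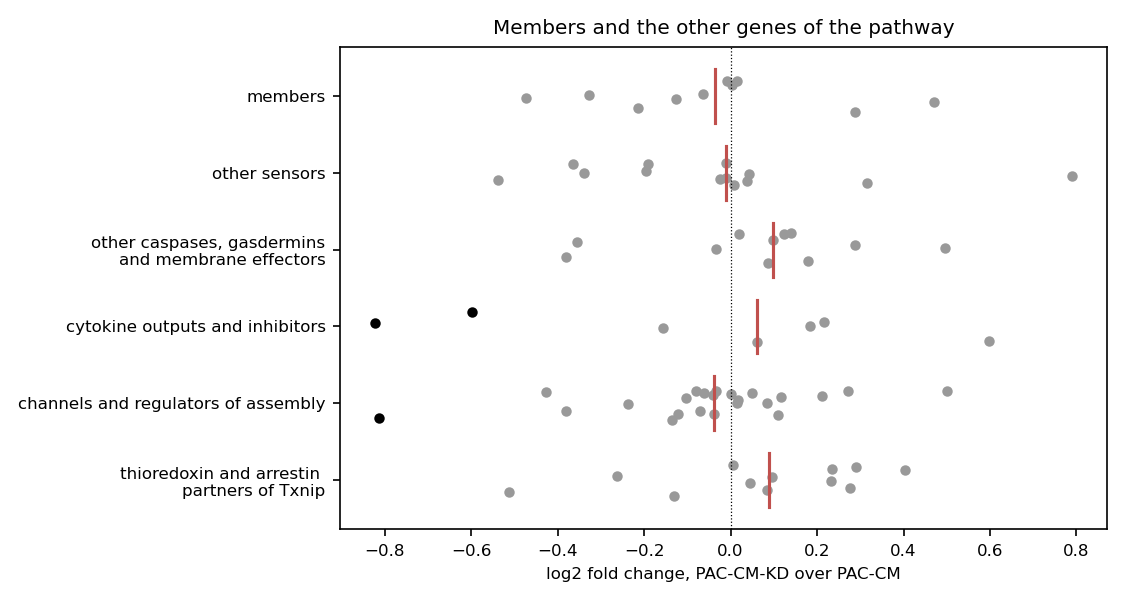
Log2 fold change of kinsenoside over PAC-CM (x axis) of the 10 genes and of 66 other tested pathway genes in 5 groups; black points passed an adjusted p of 0.05 and red bars are medians. The black points are Il1a and Il1b among the cytokines and Irf1 among the regulators, and the medians lie between -0.04 and 0.10.

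The genes whose pattern over the 6 libraries was most like a gene of the set were ranked by Pearson r of log2 CPM among 8728 named genes whose mean was 5 CPM or more. For Nlrp3 they were Ptk2b (r = 0.9991), Epc2 (0.9951) and Cxcl11 (0.9921), all with their lowest value in kinsenoside replicate 3. Cxcl11, an interferon-induced chemokine gene, had 18.7, 17.9 and 6.86 CPM with kinsenoside and 33.9, 35.9 and 35.6 CPM in PAC-CM. For Gsdmd they included Slc41a2 (0.9803) and Mul1 (0.9746). For Txnip they were Rsbn1 (0.9956), Itgal (0.983) and Nfatc3 (0.9802). With 6 points that share the group difference, the scaling and the library depth, such values rank genes and describe no shared control, and none of the 8 genes named here passed (edgeR adjusted p between 0.231 and 0.684).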

How the data were processed

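RNA of 6 macrophage samples was sequenced from both ends after mRNA enrichment, per the labels' protocols. The table the authors deposited holds raw counts, whole numbers for each Ensembl gene and library. The submitters' processing notes name STAR, StringTie 1.3.1c, DESeq2 1.16.1 and GRCm38, with no role given. The tool behind the counts and its use of strand are not given in the sources used here. Coordinates and exon lengths come from GENCODE M21, of the same build. The counts were fitted with edgeR 4.0.16 (filterByExpr, TMM, robust quasi-likelihood, the group alone, 4 residual degrees of freedom, two-sided, threshold 0.05). Standard errors are the absolute log2 fold change over the root of the F statistic, and the 95% interval covers the spread between libraries before adjustment. At these depths 3 counts equal 0.0632 to 0.0729 CPM by plain library totals, a limit for counting error only. The edgeR script was tested on simulated data.

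The genes and lists were chosen with earlier results of these data known. Named were all 10 genes, each pathway gene that passed, the 2 of highest RPKM per pathway group, and the 3 genes most alike to Nlrp3, Gsdmd and Txnip, of which 1 is not reported here. Any further gene was either picked with its values in view, as the text states, or is a model overlapping a gene of the set. Pathway names under which a gene has an older symbol were counted once. The alternatives were DESeq2 1.42.0, limma-voom (limma 3.58.1), RLE, total count and upper quartile scaling, no filter on low counts, a minimum above 1 CPM in 3 or more libraries, a block for the replicate number, estimates without robust shrinkage, each library left out, and a threshold of 0.01 for counts of calls. DESeq2 was fitted to 23425 genes without the filter on low counts, so tool and filter changed together there.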

Additional observations from a re-analysis of the deposited data

How the results depend on the processing

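The count of 0 calls among the 10 genes held in all 15 alternatives and at a threshold of 0.01. Over all genes, 71 passed (29 higher, 42 lower). There were 415 with DESeq2, which was fitted without the filter, and 105 in edgeR without a filter. Limma-voom gave 39, the replicate block 42, non-robust estimates 36 and a threshold of 0.01 gave 11. Total count scaling gave 25 higher and 63 lower. Leaving out kinsenoside replicate 1, 2 or 3 gave 98, 20 and 37, and leaving out PAC-CM replicate 1, 2 or 3 gave 13, 26 and 14. Among the pathway genes 3 passed, against 7 with DESeq2 (Gbp5, Arrdc2 and Arrdc4 among those added), 1 at a threshold of 0.01 and between 1 and 3 with a library left out. The labels do not say if equal replicate numbers pair the samples, and 3 libraries per group cannot settle it. Deviations from the group means correlated at 0.0087, -0.1015 and 0.1349 for same-numbered libraries. Kinsenoside replicate 1 correlated best with PAC-CM replicate 2 (0.1643), replicate 2 with PAC-CM replicate 1 (0.0543) and replicate 3 with PAC-CM replicate 3. With the replicate block, Nlrp3 had -0.34 and Txnip -0.50, with no call among the 10.

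Log2 fold changes changed sign in 12 of 150 values of the 10 genes and 6 of 180 of the named pathway genes. With total count scaling Aim2 had -0.0304, Casp1 -0.0424 and Nlrc5 -0.0062, and with upper quartile scaling Aim2 had -0.0041 and Casp1 -0.0161. Casp1 had -0.0003 with DESeq2 and -0.002 without a filter. With single libraries left out, Aim2 ranged from -0.0243 to 0.0586, Pycard from -0.0669 to 0.0514, Casp1 from -0.0517 to 0.0399, Naip2 from -0.1061 to 0.0264 and Gbp2 from -0.1347 to 0.0031. Leaving out kinsenoside replicate 1 changed the sign of Aim2 (-0.0243), Pycard (0.0144), Naip2 (0.0264) and Gbp2 (0.0031), and Gbp2 changed sign in that fit only. The cause was not tested.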

Other observations

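The pathway genes given here lie outside the naming rule and were singled out after their values were seen. None passed in edgeR. Arrdc2, an arrestin-domain gene, had 5.42, 5.60 and 5.69 CPM with kinsenoside and 8.19, 7.64 and 8.02 CPM in PAC-CM (log2 fold change -0.51, edgeR adjusted p = 0.0846), and it passed with DESeq2 alone of the 15 alternatives (adjusted p = 0.0291). Its estimate thus lay below 0 with that of Txnip, while that of Arrdc4 lay above 0. Nod1, a sensor of bacterial peptidoglycan, had 30.6, 59.8 and 56.6 CPM with kinsenoside and 70.3, 72.6 and 70.8 CPM in PAC-CM, with replicate 1 far below its own group (log2 fold change -0.54, adjusted p = 0.394). Irf8, a transcription factor gene that supports Naip expression, had 154.6, 75.4 and 83.6 CPM with kinsenoside and 61.9, 77.3 and 82.5 CPM in PAC-CM, with replicate 1 far above both groups (log2 fold change 0.50, adjusted p = 0.529).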
